A study of Mus musculus with 12 samples.

Results

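The insulin-like growth factor binding proteins (IGFBPs) encoded by Igfbp1 to Igfbp7 were followed across 4 populations of epidermal cells sorted from mouse back skin in telogen, when hair follicles rest. The members were chosen by name, with earlier results on the same arrays known: all 7 genes were measured, by 58 of the 221205 exon probe sets that carry 1 gene symbol, among 17853 genes in all. The cells came from female C57BL6/CBA mice that carried the Gata6-mtomato reporter, so every population, including those without red fluorescence, shares this transgene. CD34+Itga6+ cells carry CD34, a surface marker of hair follicle bulge stem cells, together with integrin alpha 6, which anchors basal keratinocytes to the basement membrane. CD34-Itga6+ cells are the other reporter-negative cells with integrin alpha 6. Gata6+Itga6+ and Gata6+Itga6- cells had the reporter of this zinc-finger transcription factor, with or without integrin alpha 6. Each population has 3 arrays, which the labels call biological replicates. Their RNA was amplified and read on Affymetrix exon arrays. The number of animals behind each array was not stated, and a reporter marks cells by its own fluorescence, not by Gata6 protein.

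IGFBPs are secreted proteins that hold insulin-like growth factors 1 and 2 outside cells and so limit or prolong their access to the receptor Igf1r. Proteases such as the pappalysins cut them and set the growth factors free. Igfbp3 carries most of the growth factor in blood and is known from basal keratinocytes, Igfbp6 prefers Igf2, and Igfbp7 binds these growth factors only weakly and lies in the matrix around vessels and epithelia.

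A gene's level is the median over its probe sets of log2(intensity + 1). A level of 2.68 marks silent genes here: it is the 95th percentile, over 1144 olfactory and vomeronasal receptor genes, of the highest population mean. For single probe sets the same rule gives 3.22. Levels are compared between populations for the same gene or probe set only, never between genes. A fold whose lower mean is below the silent level was computed against that level and is given as a lower bound (at least). The brightest probe set of a gene is the one with the highest mean log2 level over the 12 arrays.

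In outline, by gene median, Igfbp5 and Igfbp6 stood above the silent level in CD34+Itga6+ cells only. By the same measure Igfbp3 and Igfbp7 stood high in both reporter-negative populations and low in Gata6+ cells. The brightest probe set of Igfbp6 was nevertheless above the level of silent probe sets in every population. The Igfbp4 probe sets 5449441 and 4311915 were high in CD34+Itga6+ and in both Gata6+ populations and low in CD34-Itga6+ cells. Igfbp1 and Igfbp2 stayed under the silent level as genes in every population. These levels led to the choice of the family, so they are described without a test.

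The DNA just before the transcription starts of the genes that vary is shown because these genes move in pairs or apart, as described further on. The windows are RefSeq promoter sequence of assembly GRCm38.p6, 5′ to 3′ on the gene's strand, and end at the base before the start. Of Igfbp5, Igfbp6 and Igfbp7, 250 bases are given; of Igfbp3 and Igfbp4, for which another gene model begins farther upstream, only the last 30. Capitals mark motif matches on either strand.
Igfbp5 (chr1:72874866-72875115, minus strand): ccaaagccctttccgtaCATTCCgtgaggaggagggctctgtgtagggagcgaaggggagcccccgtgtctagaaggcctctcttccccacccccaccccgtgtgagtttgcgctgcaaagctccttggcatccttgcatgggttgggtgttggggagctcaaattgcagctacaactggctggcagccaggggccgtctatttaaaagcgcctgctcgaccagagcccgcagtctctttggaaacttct
Igfbp6 (chr15:102143936-102144185, plus strand): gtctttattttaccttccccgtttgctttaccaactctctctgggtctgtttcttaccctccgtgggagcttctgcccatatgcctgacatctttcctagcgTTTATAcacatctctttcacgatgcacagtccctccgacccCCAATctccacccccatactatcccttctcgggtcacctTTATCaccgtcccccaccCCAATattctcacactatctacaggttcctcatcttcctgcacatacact
Igfbp7 (chr5:77408046-77408295, minus strand): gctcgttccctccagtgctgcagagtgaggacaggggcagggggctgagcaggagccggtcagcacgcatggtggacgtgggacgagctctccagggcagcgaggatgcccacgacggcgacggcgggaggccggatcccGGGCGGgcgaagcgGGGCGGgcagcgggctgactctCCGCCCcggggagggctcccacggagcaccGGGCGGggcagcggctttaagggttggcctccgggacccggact
Igfbp3 (chr11:7213924-7213953, minus strand): TATATAtcggcctgcgcgcccgggctgccc
Igfbp4 (chr11:99041214-99041243, plus strand): ggTATAAAgtcccgggagccggtcccgggc
Igfbp6 had 1 TATAAA match on the reverse strand 148 to 143 bases before the start, 1 GATAA match, the letters that GATA factors bind, on the reverse strand 68 to 64 bases before it, and 2 CCAAT matches. The Igfbp7 window held 4 matches of GGGCGG, the GC box, and its GC content was 74.0% against a median of 52.4% over all 32851 windows of the same length. Igfbp5, at 58.8% GC, had 1 match of GGAATG, the core bound by TEAD factors, on the reverse strand 233 to 228 bases before the start. Igfbp3 had TATATA 30 to 25 bases before its start and Igfbp4 had TATAAA at 28 to 23. Of all windows, 12.4% held TATAAA, 22.6% GATAA, 33.85% CCAAT, 32.7% GGGCGG, 12.6% GGAATG and 5.25% TATATA, so none of these letters is rare. The AP-1 site TGACTCA (4.46% of windows) and the E-box CACGTG (6.02%) were found in none of the sequences shown; overlaps between motifs were allowed. A match is a stretch of letters and not a measured site. On the chromosomes, Igfbp1 and Igfbp3 are neighbours on chromosome 11 and Igfbp2 and Igfbp5 on chromosome 1, with 0 protein-coding genes between them, yet within each of these neighbour pairs 1 gene was under the silent level throughout and the other was not.

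The sorted cells carried the markers of their gates. Cd34 had a mean log2 level of 7.95 in CD34+Itga6+ cells and of 1.66 to 1.96 elsewhere, and Gata6 was at 5.84 and 4.39 in Gata6+ cells without and with integrin alpha 6 and at 2.73 to 2.84 in reporter-negative cells. Itga6 RNA was still at 6.02 in Gata6+Itga6- cells, against 6.76 to 7.67 in the other populations, so its absence at the surface was not matched by absent RNA. All 6 listed basal keratinocyte genes were above the silent level in every population, all 6 bulge genes in CD34+Itga6+ cells against 1 to 3 elsewhere, and all 5 upper follicle genes in both Gata6+ populations against 2 and 3 in the others. The upper quartile of intensity ran from 12.1 to 17.6 over the 12 arrays, whose number limits the precision of every value.

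Igfbp3, the main carrier of these growth factors in blood, was high in cells without the Gata6 reporter and low in cells with it. In CD34+Itga6+ cells, replicates 1 to 3 had log2 levels of 5.44, 6.16 and 5.75, and in CD34-Itga6+ cells of 6.04, 4.86 and 6.12. Gata6+Itga6+ cells had levels of 3.36, 3.70 and 2.47. Gata6+Itga6- cells had levels of 1.99, 2.56 and 2.33. Every reporter-negative array thus lay above every Gata6+ array, and replicate 3 of Gata6+Itga6+ and all Gata6+Itga6- arrays were under the silent level. From high to low the means were 5.79 ± 0.36 (SD, n = 3) in CD34+Itga6+, 5.67 ± 0.70 in CD34-Itga6+, 3.18 ± 0.64 in Gata6+Itga6+ and, lowest, 2.29 ± 0.29 in Gata6+Itga6- cells. Within the reporter-negative and within the Gata6+ populations the arrays overlapped. Gata6+Itga6+ cells were lower than CD34+Itga6+ cells by a log2 difference of -2.61 (SE 0.39) or 6.11-fold and lower than CD34-Itga6+ cells by -2.50 or 5.64-fold. Gata6+Itga6- cells were at least 8.61-fold lower than CD34+Itga6+ and at least 7.95-fold lower than CD34-Itga6+ cells. As the arrays hold RNA of many cells, fewer cells with a transcript and less of it per cell cannot be told apart, here and for every gene below.

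Some single Igfbp3 probe sets, but not most, showed a step between the Gata6+ populations that the gene median shows less clearly. Probe set 5090238 read 5.98, 6.38 and 7.10 in CD34+Itga6+ cells, and 6.80, 7.01 and 7.57 in CD34-Itga6+ cells. Gata6+Itga6+ arrays read 3.34, 4.33 and 3.85, and Gata6+Itga6- arrays 1.59, 1.33 and 1.36. Here all Gata6+Itga6+ arrays stood above all Gata6+Itga6- arrays, which lay under the level of silent probe sets, and below all reporter-negative ones. Probe set 5426997, bright as well, had population means of 7.60, 7.45, 4.39 and 2.68 in the same order, but its Gata6+Itga6+ arrays split into 5.43, 5.15 and 2.57. Of the 7 probe sets, 4 were lower in Gata6+Itga6+ than in CD34+Itga6+ cells without overlap, as were 7.58% of all probe sets. Against CD34-Itga6+ cells 5 were lower (5.12% of all), and within Gata6+ cells 2 were lower without integrin alpha 6 (9.65% of all). The other 5 overlapped within Gata6+ cells, and the log2 differences of the 7 ran from -2.41 to 0.54. The family was chosen for such differences, so nothing is read from these counts or from those below. Of the 7, 6 passed the level of silent probe sets in some population.

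Igfbp7, a matrix-associated member that binds insulin-like growth factors weakly, was the other gene high without the reporter. Its levels were 5.01, 4.94 and 5.26 in CD34+Itga6+ cells and 4.32, 4.79 and 4.60 in CD34-Itga6+ cells. Gata6+Itga6+ cells had 4.08, 2.18 and 2.47 and Gata6+Itga6- cells 2.02, 2.23 and 2.15. CD34+Itga6+ arrays lay above all others, CD34-Itga6+ arrays came next, and the Gata6+ populations overlapped. Replicate 1 of Gata6+Itga6+ cells, at 4.08, stood well above replicates 2 and 3, which were under the silent level. The means were 5.07 ± 0.17, 4.57 ± 0.24, 2.91 ± 1.02 and 2.13 ± 0.10 (SD, n = 3). Gata6+Itga6+ cells were 4.47-fold lower than CD34+Itga6+ and 3.15-fold lower than CD34-Itga6+ cells, with log2 differences of -2.16 and -1.66 (SE 0.39). Without replicate 1 the Gata6+Itga6+ mean was itself under the silent level, and the folds were at least 5.25 and at least 3.70. Gata6+Itga6- cells were at least 5.25-fold and at least 3.70-fold lower than CD34+Itga6+ and CD34-Itga6+ cells, so without that array the Gata6+ populations have no order.

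The 9 Igfbp7 probe sets were of different kinds. Probe set 5103792 read 7.32, 7.73 and 7.23 in CD34+Itga6+ cells, and 4.79, 5.49 and 5.90 in CD34-Itga6+ cells. Gata6+Itga6+ arrays read 4.08, 2.13 and 3.61, and Gata6+Itga6- arrays 1.94, 1.35 and 1.64. No array of a population overlapped one of the next in this order, and the gene median blurs the fall over the first 3 populations. Replicate 2 of Gata6+Itga6+ cells and all Gata6+Itga6- arrays were under the level of silent probe sets. The last step therefore rests on Gata6+Itga6+ replicates 1 and 3. Probe sets 5429920 and 5051074 gave means of 6.22, 3.33, 1.80 and 1.66, and of 7.14, 4.92, 3.15 and 2.59, with CD34+Itga6+ cells 7.45-fold and 4.67-fold above CD34-Itga6+ cells. Of the CD34-Itga6+ arrays of 5429920, replicates 1 and 2, at 2.47 and 2.69, were under the level of silent probe sets, and replicate 3, at 4.81, alone lifted the mean over it. In contrast, 3 probe sets, 4507552, 4518772 and 5186035, stayed between 3.76 and 5.84 on all 12 arrays. Of these, 4518772 is the brightest probe set by its mean over the 12 arrays, and it gave a log2 difference of -0.16 between CD34+Itga6+ and CD34-Itga6+ cells, opposite in sign to the gene median. Since a gene's level is a median, the Igfbp7 median of CD34+Itga6+ and CD34-Itga6+ cells differed by 0.50, or 1.42-fold, while the 3 steep probe sets differed by 2.03 to 2.90. In all, 8 of 9 probe sets were lower in Gata6+Itga6- than in CD34+Itga6+ cells without overlap (10.4% of all probe sets), and 6 of 9 were lower in Gata6+Itga6+ cells (7.58%).

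**Figure D1:**
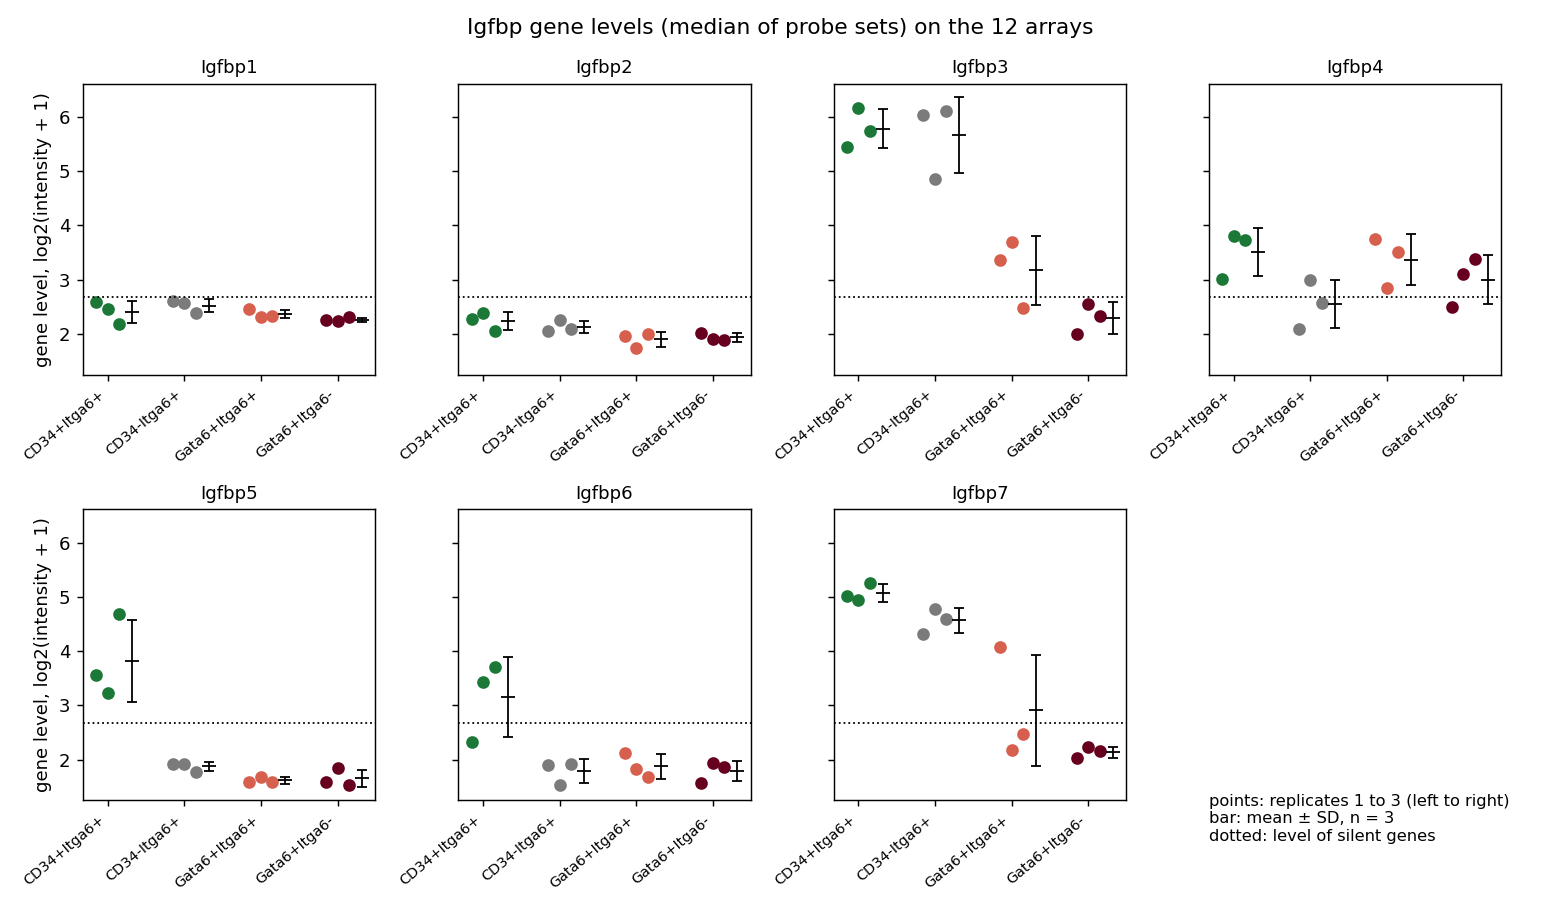
Log2 gene levels of the 7 Igfbp genes on the 12 arrays (y axis, log2 of intensity + 1), by sorted population; points are replicates, bars the mean and SD (n = 3), and the dotted line the silent level of 2.68. Igfbp3 and Igfbp7 are high in the reporter-negative populations, Igfbp5 and Igfbp6 in CD34+Itga6+ cells, and Igfbp1 and Igfbp2 stay below the line.

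Igfbp5, a conserved member that binds to extracellular matrix and is cut by pappalysins and by Htra1, was found in CD34+Itga6+ cells. Its levels were 3.57, 3.23 and 4.68 there. CD34-Itga6+ cells had 1.92, 1.91 and 1.78, Gata6+Itga6+ cells 1.58, 1.68 and 1.58, and Gata6+Itga6- cells 1.59, 1.84 and 1.53. All CD34+Itga6+ arrays lay above the silent level and all 9 others under it. The mean of 3.83 ± 0.76 (SD, n = 3) was at least 2.22-fold above each of the other populations, and at least 1.65-fold without replicate 3 of CD34+Itga6+. The log2 difference from CD34-Itga6+ cells was 1.96 (SE 0.29) as measured. The other means, 1.87, 1.65 and 1.62, have no order, as all are under the silent level.

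Single probe sets of Igfbp5, which has 12, differed between populations by more than the gene median. Probe set 4320154 read 7.48, 8.38 and 8.19 in CD34+Itga6+ cells, against 1.32, 1.26 and 2.04 in CD34-Itga6+, 1.35, 2.22 and 1.50 in Gata6+Itga6+ and 1.67, 1.87 and 1.26 in Gata6+Itga6- cells. The mean of 8.02 in CD34+Itga6+ cells was at least 27.8-fold above every other population. Probe set 5201461, with 5.80, 6.30 and 6.59 in CD34+Itga6+ cells and at most 2.03 elsewhere, was at least 8.07-fold higher. In 11 of the 12 probe sets Gata6+Itga6+ cells were lower than CD34+Itga6+ cells without overlap (7.58% of all probe sets). In 9 of 12 CD34+Itga6+ cells were higher than CD34-Itga6+ cells (9.10% of all probe sets). Of the 12, 4 stayed under the level of silent probe sets in every population.

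Igfbp6, the member that prefers Igf2, was the other gene above the silent level in CD34+Itga6+ cells only, at 2.32, 3.44 and 3.71. Its levels were 1.90, 1.52 and 1.92 in CD34-Itga6+, 2.12, 1.82 and 1.68 in Gata6+Itga6+ and 1.57, 1.94 and 1.86 in Gata6+Itga6- cells. CD34+Itga6+ arrays were above all others, but replicate 1 was itself under the silent level. The mean of 3.16 ± 0.74 (SD, n = 3) was at least 1.39-fold above the other populations, at least 1.86-fold without replicate 1 of CD34+Itga6+ and at least 1.15-fold without its replicate 3. The log2 difference from CD34-Itga6+ cells was 1.38 (SE 0.31) as measured. Probe set 5422949 read 3.55, 4.33 and 5.73 in CD34+Itga6+ cells and at most 2.28 on any other array, and was at least 2.49-fold higher. Probe set 5576857, the brightest of the gene, was instead detected everywhere, with means of 6.36 in CD34+Itga6+, 5.61 in CD34-Itga6+, 5.23 in Gata6+Itga6+ and, lowest, 4.66 in Gata6+Itga6- cells; CD34+Itga6+ arrays overlapped those of CD34-Itga6+ and Gata6+Itga6+ cells. The gene rests on few probe sets, as 3 of its 6 passed the level of silent probe sets in any population.

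Igfbp4, a binding protein cut by the pappalysin Pappa, gave different pictures as a gene median and in single probe sets. As a gene it had levels of 3.01, 3.81 and 3.73 in CD34+Itga6+ cells, 2.09, 2.99 and 2.57 in CD34-Itga6+, 3.76, 2.84 and 3.51 in Gata6+Itga6+, and 2.50, 3.10 and 3.39 in Gata6+Itga6- cells. Only CD34+Itga6+ and CD34-Itga6+ arrays did not overlap, with a log2 difference of 0.97 (SE 0.34) or at least 1.78-fold. Ordered by mean, CD34+Itga6+ cells were at 3.52 ± 0.44, Gata6+Itga6+ cells at 3.37 ± 0.48, Gata6+Itga6- cells at 3.00 ± 0.45 and CD34-Itga6+ cells at 2.55 ± 0.45 (SD, n = 3). Neighbours in this order overlapped.

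In contrast, 2 of its 7 probe sets, the 2 with the highest means over the 12 arrays, were lower in CD34-Itga6+ cells than in each other population without overlap. Probe set 5449441 read 7.29, 7.64 and 7.85 on CD34+Itga6+ arrays, 8.21, 7.81 and 7.75 on Gata6+Itga6+ arrays and 7.29, 7.80 and 7.60 on Gata6+Itga6- arrays, but 1.98, 2.99 and 3.76 on those of CD34-Itga6+ cells. All 9 arrays of the first 3 populations lay above 7 and overlapped each other, while CD34-Itga6+ cells were at least 20.8-fold lower than CD34+Itga6+, at least 26.1-fold lower than Gata6+Itga6+ and at least 20.3-fold lower than Gata6+Itga6- cells. Probe set 4311915 was lowest in CD34-Itga6+ cells too, with 5.52, 6.79 and 7.05 in CD34+Itga6+, 7.58, 6.93 and 7.49 in Gata6+Itga6+, 6.15, 7.12 and 6.32 in Gata6+Itga6- and 3.84, 4.01 and 4.01 in CD34-Itga6+ cells. CD34-Itga6+ arrays were again below all others, 5.67-fold lower than CD34+Itga6+ and 10.4-fold lower than Gata6+Itga6+ cells. Without overlap, CD34-Itga6+ cells were lower than CD34+Itga6+ cells in 5 of 7 probe sets (9.10% of all probe sets), than Gata6+Itga6+ cells in 4 (8.65%) and than Gata6+Itga6- cells in 3 (8.55%). Igfbp3 and Igfbp7 were the other way round, higher in CD34-Itga6+ than in Gata6+ cells.

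**Figure D2:**
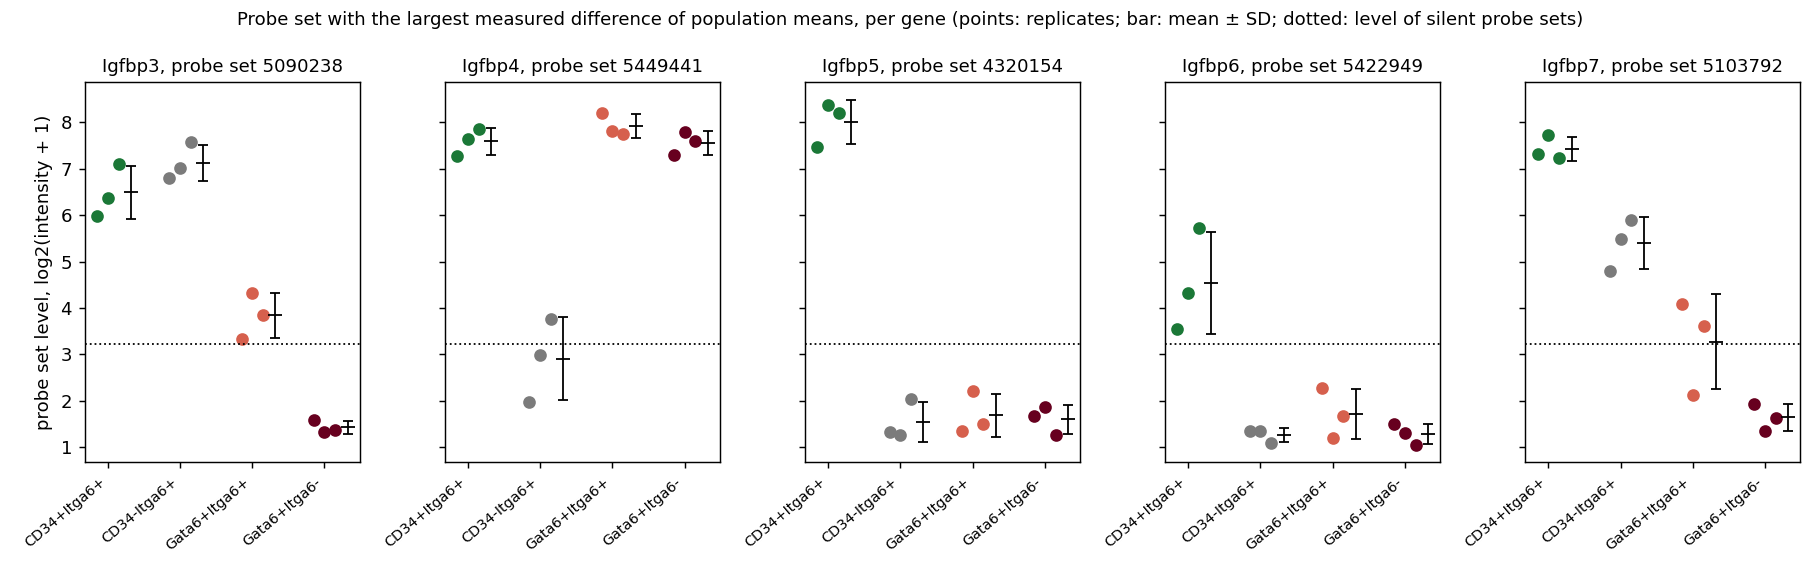
Log2 level (y axis) of the probe set with the largest measured difference between means of any pair of populations, for Igfbp3, Igfbp4, Igfbp5, Igfbp6 and Igfbp7; points are the 3 replicates of a population, bars the mean and SD, and the dotted line the level of silent probe sets, 3.22. Igfbp5 is at 7.48 to 8.38 in CD34+Itga6+ cells and at most 2.22 elsewhere, whereas Igfbp4 is low in CD34-Itga6+ cells alone.

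Igfbp1, a liver product under the control of insulin, and Igfbp2, a member common in fetal and neural tissue, gave no level above silent genes. Igfbp1 ran from 2.19 to 2.61 and Igfbp2 from 1.74 to 2.37 over the 12 arrays. Differences between populations at such levels have no order, even where the arrays do not overlap. Among single probe sets, 4 of the 8 of Igfbp1 and 3 of the 9 of Igfbp2 passed the level of silent probe sets in some population. The Igfbp2 probe set 4825612 lay between 4.76 and 5.45 on every array. Among the 2409 probe sets of the receptor genes, 8.76% passed 2.68 in some population, which is why single probe sets are given a line of their own.

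**Figure D3:**
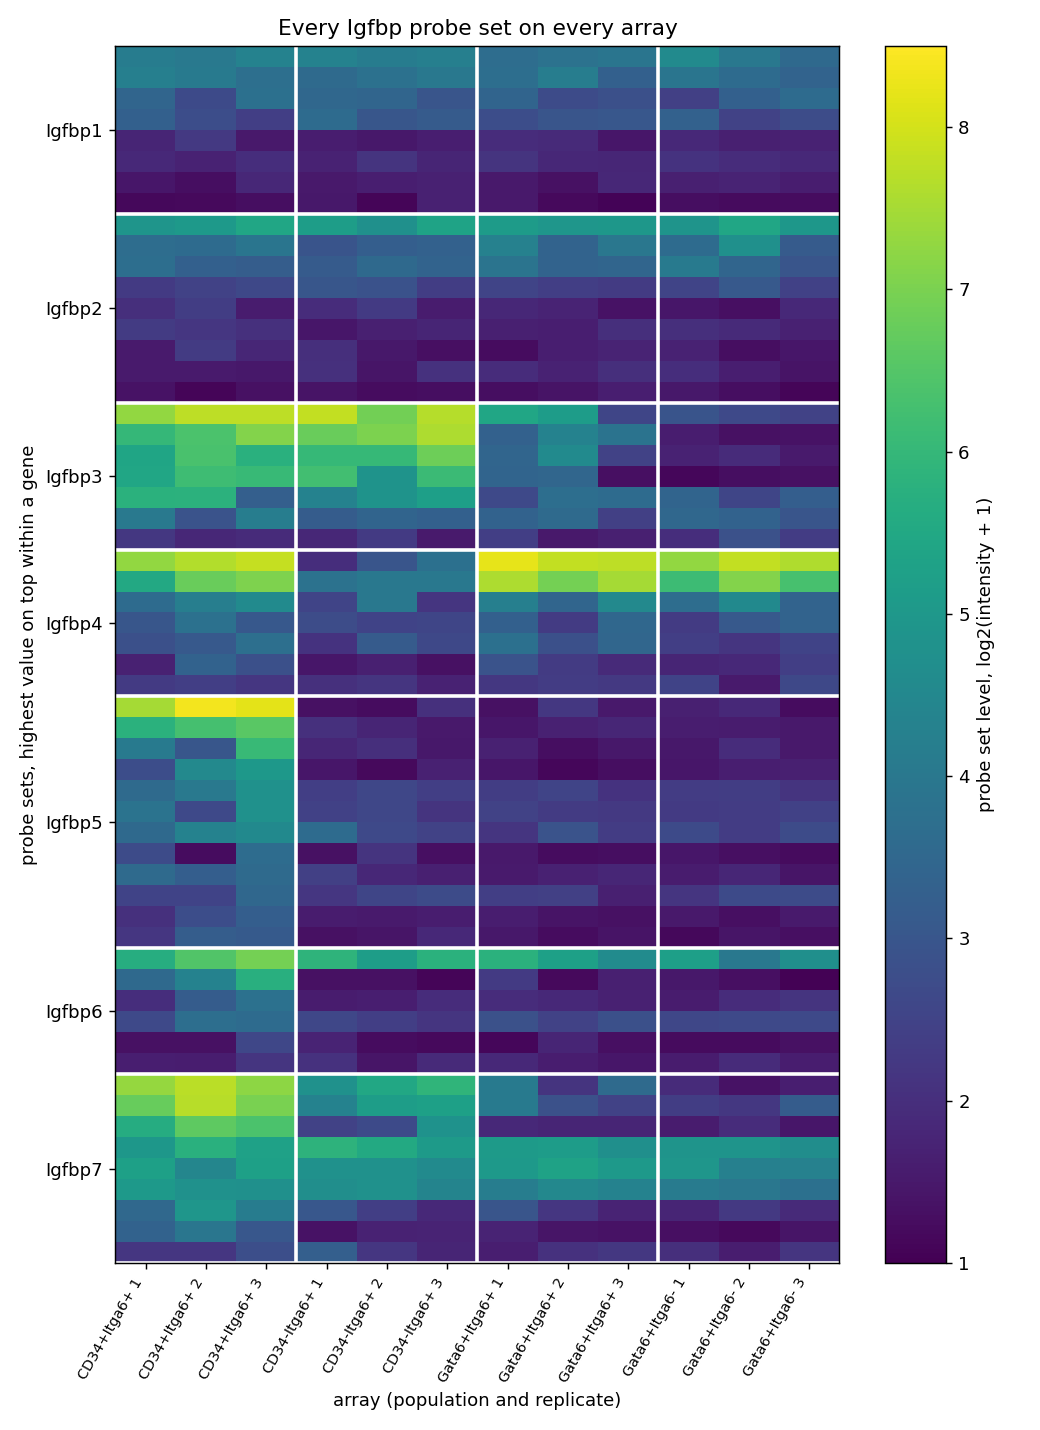
Log2 level (colour) of each of the 58 Igfbp probe sets (rows, grouped by gene, highest value on top) on each of the 12 arrays (columns, 3 per population). The top rows of Igfbp4 and Igfbp5 change colour between populations while their bottom rows are dim on all arrays, and Igfbp7 holds rows that change colour between populations and rows of like colour on all arrays.

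Over the family, Gata6+Itga6+ arrays were lower than CD34+Itga6+ arrays without overlap in 5 of 7 genes and higher in 0; of all genes 8.45% were lower and 11.0% higher in this way. They were lower than CD34-Itga6+ arrays in 4 of 7 genes and higher in 0 (5.30% and 10.4% of all genes). CD34+Itga6+ arrays were higher than CD34-Itga6+ arrays in 4 of 7 and lower in 0 (10.8% and 8.02%). Gata6+Itga6- arrays were lower than Gata6+Itga6+ arrays in 1 of 7, Igfbp1, which is under the silent level, and higher in 0 (12.8% and 6.52%). Against CD34+Itga6+ arrays they were lower in 5 and higher in 0 (12.9% and 9.80%), and against CD34-Itga6+ arrays lower in 4 and higher in 0 (10.0% and 9.79%). These counts include Igfbp1 and Igfbp2, under the silent level throughout. That of Gata6+Itga6+ against CD34-Itga6+ arrays also includes Igfbp5, which was under the silent level in both populations. Comparisons that share a population share its arrays. Nothing is read from the counts beside these shares. Median log2 differences over the 7 genes were -1.28 for Gata6+Itga6+ against CD34+Itga6+ (all genes 0.02), -0.23 against CD34-Itga6+ (0.04), -0.10 for Gata6+Itga6- against Gata6+Itga6+ (-0.03) and 0.50 for CD34+Itga6+ against CD34-Itga6+ cells (0.02). The values of -0.23 and -0.10 are those of Igfbp2 and Igfbp1, which were under the silent level, so no shift of the family is read from them.

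Across the 12 arrays, Igfbp7 and Igfbp3 had a Pearson r of 0.89 and Igfbp6 and Igfbp5 of 0.88; the other pairs of the 5 genes above the silent level ran from -0.10 to 0.67. The arrays fall into 4 populations, which these values share, so they only describe. The genes most like each member were sought among 7906 genes above the silent level in some population, without predicted gene models and clone names. Those most like Igfbp5 were Itgb6, an integrin chain (r = 0.986), Tnc, the matrix protein tenascin C (0.984), and Mgat4a, a glycosyltransferase (0.984). Closest to Igfbp6 were the fatty acid elongase Elovl5 (0.973), Emp3 (0.966) and the growth factor Fgf1 (0.961). Igfbp3 was followed most closely by Serpinb10 (0.951), Atrnl1 (0.945) and the sialyltransferase St6galnac2 (0.933), and Igfbp7 by the lysosomal protease Ctsl (0.929), the kinase Camkk2 (0.923) and the carbonyl reductase Cbr2 (0.914). Igfbp4 had the lowest values, with the ceramidase Asah1 (0.879), Chpt1 (0.879) and Prpf39 (0.877). Serpinb10 had means of 6.31, 5.55, 3.75 and 1.62 in CD34+Itga6+, CD34-Itga6+, Gata6+Itga6+ and Gata6+Itga6- cells, the same order as Igfbp3. Tnc was at 4.20 in CD34+Itga6+ cells and at 1.83 to 1.94 elsewhere.

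Other cells of skin also make IGFBPs, so markers of such cells are given beside these levels. Of 7 dermal fibroblast genes, Col1a1, Col1a2 and Fbln1 were above the silent level in CD34+Itga6+ cells, at 2.83, 2.89 and 4.24, and 0 of 7 in the other populations. Their summed intensity was 32.4 to 47.4 on CD34+Itga6+ arrays and 18.5 to 19.9 on all others. The fibroblast genes Col3a1, Dcn, Lum and Pdgfra were under the silent level everywhere, with means of 1.82, 1.63, 1.37 and 1.59 in CD34+Itga6+ cells. Of 6 endothelial and 5 pericyte and smooth muscle genes, 0 were above it in any population; the former summed to 12.2 to 15.8 and the latter to 10.6 to 12.5. Of 5 melanocyte genes, Mlana alone was above the silent level, at 3.01 in CD34+Itga6+ cells and 2.29 to 2.53 elsewhere; the 5 summed to 16.6 to 17.9 there and to 14.2 to 16.4 on other arrays. The fibroblast and melanocyte sums thus moved in the same direction as Igfbp5 and Igfbp6, and their part in these levels was not tested. Of 3 measured T cell genes, Thy1 was above the silent level in CD34-Itga6+ cells and Cd3e in Gata6+Itga6- cells. The T cell genes summed to 12.8 to 39.2 on CD34-Itga6+ arrays and to 7.74 to 19.6 on all others. Of 5 Langerhans cell and macrophage genes, H2-Aa alone was above the silent level, in Gata6+Itga6- cells. Of 3 measured Merkel cell genes, 0 were above it in any population. The part of these cells was not tested either.

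The other genes of the pathway were measured on the same arrays and were not used to choose the family. Their list and that of IGFBP-like domain genes below were, however, chosen with earlier results of these data known. The p-values given for them are therefore not independent of those results. The genes were compared with the linear models of limma. Calls were made at an adjusted p below 0.05 (Benjamini-Hochberg, 17853 genes). Of 48 listed genes of IGF signalling 45 were measured, and 27 of these were above the silent level in some population. The ligands were not: Igf1 had means of 1.82 to 1.88 and Igf2 of 1.98 to 2.15 in the 4 populations. Pappa, at 1.81 to 1.89, and Pappa2, at 1.64 to 1.75, the proteases that cut Igfbp4 and Igfbp5, were under the silent level as well.

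Receptors were present. Igf1r, the signalling receptor, had means of 3.21 ± 0.69 in CD34+Itga6+, 3.19 ± 0.46 in CD34-Itga6+, 3.36 ± 0.26 in Gata6+Itga6- and, highest, 3.74 ± 0.14 in Gata6+Itga6+ cells (SD, n = 3), and was not called in any of the 4 main comparisons. The insulin receptor Insr, at 3.51 to 4.03, was not called either. Igf2r, which removes Igf2 to lysosomes, stood at 3.14 ± 0.19 in CD34+Itga6+ cells and under the silent level in the others. It fell in Gata6+Itga6+ against CD34+Itga6+ cells (a log2 change of -0.88 with an SE of 0.16 and a limma adjusted p of 0.0123) and rose in CD34+Itga6+ against CD34-Itga6+ cells (0.91, adjusted p = 0.00865 by limma), in either case by at least 1.38-fold. With only the brightest probe set these log2 changes were larger, -1.25 and 2.92, but limma did not call them (adjusted p = 0.597 and 0.0658). The first was also not called without Gata6+Itga6+ replicate 3 (limma adjusted p = 0.0504).

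Between Gata6+Itga6+ and CD34+Itga6+ cells, limma called 1 of the 45 pathway genes higher, Htra1, and 1 lower, Igf2r (2.40% and 2.18% of all genes). Htra1, a secreted serine protease with an IGFBP-like domain that cuts Igfbp5, had means of 3.42 ± 0.23 in CD34+Itga6+, 6.25 ± 0.75 in CD34-Itga6+, 5.49 ± 0.083 in Gata6+Itga6+ and only 2.21 ± 0.24 in Gata6+Itga6- cells. It was 4.21-fold higher in Gata6+Itga6+ than in CD34+Itga6+ cells (a log2 change of 2.07 with an SE of 0.31 and a limma adjusted p of 0.00315). Its highest mean was thus in CD34-Itga6+ cells and its lowest in Gata6+Itga6- cells.

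Between Gata6+Itga6+ and CD34-Itga6+ cells, limma called 0 of 45 pathway genes (1.07% of all genes higher and 0.286% lower). By limma 6 had an unadjusted p under 0.05, and after quantile normalization 1 was called. Within Gata6+ cells, 2 of 45 fell in Gata6+Itga6- against Gata6+Itga6+ cells and 0 rose (2.01% and 1.17% of all genes). They were Htra1, at least 7.03-fold lower (limma adjusted p = 0.000357), and the integrin chain Itgb1, 11.8-fold lower (a log2 change of -3.56 with an SE of 0.38 and a limma adjusted p of 0.000891), part of a receptor through which Igfbp1 can bind cells. Igfbp1 itself was under the silent level, and the sort had parted these populations by another integrin chain, alpha 6. Between CD34+Itga6+ and CD34-Itga6+ cells, 3 rose and 1 fell in the former (3.32% and 1.67% of all genes). Pik3r1, the regulatory subunit of the lipid kinase downstream of Igf1r, was 5.92-fold higher in CD34+Itga6+ cells (a log2 change of 2.56 with an SE of 0.43 and a limma adjusted p of 0.0056). Igf2r and Grb14, an adaptor that restrains the insulin receptor, were the others that rose, but Grb14 was under the silent level in all populations (2.34 ± 0.21 against 1.56 ± 0.025) and limma did not call it with its brightest probe set (log2 change 0.54, adjusted p = 0.456) or without dim probe sets (adjusted p = 0.0518). Htra1 was 7.09-fold lower (limma adjusted p = 0.000336). Median log2 changes over the 45 genes were -0.02, 0.10, 0.00 and 0.09 in these 4 comparisons, beside 0.02, 0.04, -0.03 and 0.02 over all genes.

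Genes of proteins with an IGFBP-like domain outside the family were 13 in number on the arrays, Htra1 among them, with 6 above the silent level in some population. Against CD34+Itga6+ cells, Gata6+Itga6+ cells had 2 of 13 higher and 3 lower (2.40% and 2.18% of all genes). Ccn2, a matricellular protein, was 5.46-fold lower (a log2 change of -2.45 with an SE of 0.23 and a limma adjusted p of 0.000132), Ccn1, its relative, 2.60-fold lower (limma adjusted p = 0.0191) and Crim1, a transmembrane protein with cysteine-rich repeats, 2.60-fold lower (limma adjusted p = 0.0169). Kazald1, a secreted protein, and Htra1 were higher, Kazald1 by at least 2.22-fold. The call of Ccn1 was lost without CD34+Itga6+ replicate 1 or 3 or Gata6+Itga6+ replicate 1 or 3 (limma adjusted p = 0.0568 to 0.0707). The same call was lost with its brightest probe set (log2 change -1.53, limma adjusted p = 0.0561) and with only the 2 populations in the fit (0.0823). That of Crim1 was lost without CD34+Itga6+ replicate 2 or 3 or Gata6+Itga6+ replicate 2 or 3 (limma adjusted p = 0.0532 to 0.0713).

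Against CD34-Itga6+ cells, Gata6+Itga6+ cells had 2 of the 13 higher and 1 lower (1.07% and 0.286% of all genes). Ccn2 was 3.41-fold and Kazald1 at least 2.22-fold higher, while Ccn1 was 2.87-fold lower (limma adjusted p = 0.00374, 0.0199 and 0.0295). With the brightest probe set of each gene, limma called none of the 3: the log2 changes were 0.23 for Ccn2, 1.26 for Kazald1 and -0.96 for Ccn1 (adjusted p = 0.783, 0.353 and 0.37). Kazald1 and Ccn1 were not called by limma with array brightness as a covariate either (adjusted p = 0.0946 and 0.0903), nor with only the 2 populations in the fit (0.0922 and 0.14). The call of Kazald1 was lost without CD34-Itga6+ replicate 1 or 2 or Gata6+Itga6+ replicate 1 or 3 (limma adjusted p = 0.0757 to 0.0923), and that of Ccn1 without any 1 CD34-Itga6+ array or Gata6+Itga6+ replicate 1 or 3 (0.0519 to 0.121). Within Gata6+ cells 5 of 13 fell without Itga6 and 0 rose (2.01% and 1.17% of all genes). These were Htra1, Ccn1 (at least 3.88-fold), Ccn2 (3.31-fold), Kazald1 (at least 2.22-fold) and Crim1 (2.28-fold), with limma adjusted p-values from 0.000357 to 0.0469. With the brightest probe set, the log2 change of Ccn2 was only -0.16 (limma adjusted p = 0.87), and Kazald1, at -1.73, was not called (0.108). Without 1 array, the call of Crim1 was lost in 10 of 12 fits, all but those without CD34-Itga6+ replicate 2 or 3 (limma adjusted p = 0.0612 to 0.173). Crim1 was not called by limma under 6 other settings either (adjusted p = 0.0541 to 0.18). The call of Kazald1 was lost on leaving out Gata6+Itga6+ replicate 3 or Gata6+Itga6- replicate 1 or 3 (limma adjusted p = 0.0543 to 0.0587). CD34+Itga6+ cells had Ccn2 18.6-fold and Crim1 4.81-fold above CD34-Itga6+ cells and Htra1 below them (limma adjusted p = 2.33e-06, 0.000766 and 0.000336), 2 higher and 1 lower of 13 (3.32% and 1.67% of all genes). Ccn1, at 6.01 and 6.16, was not called between these populations.

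**Figure D4:**
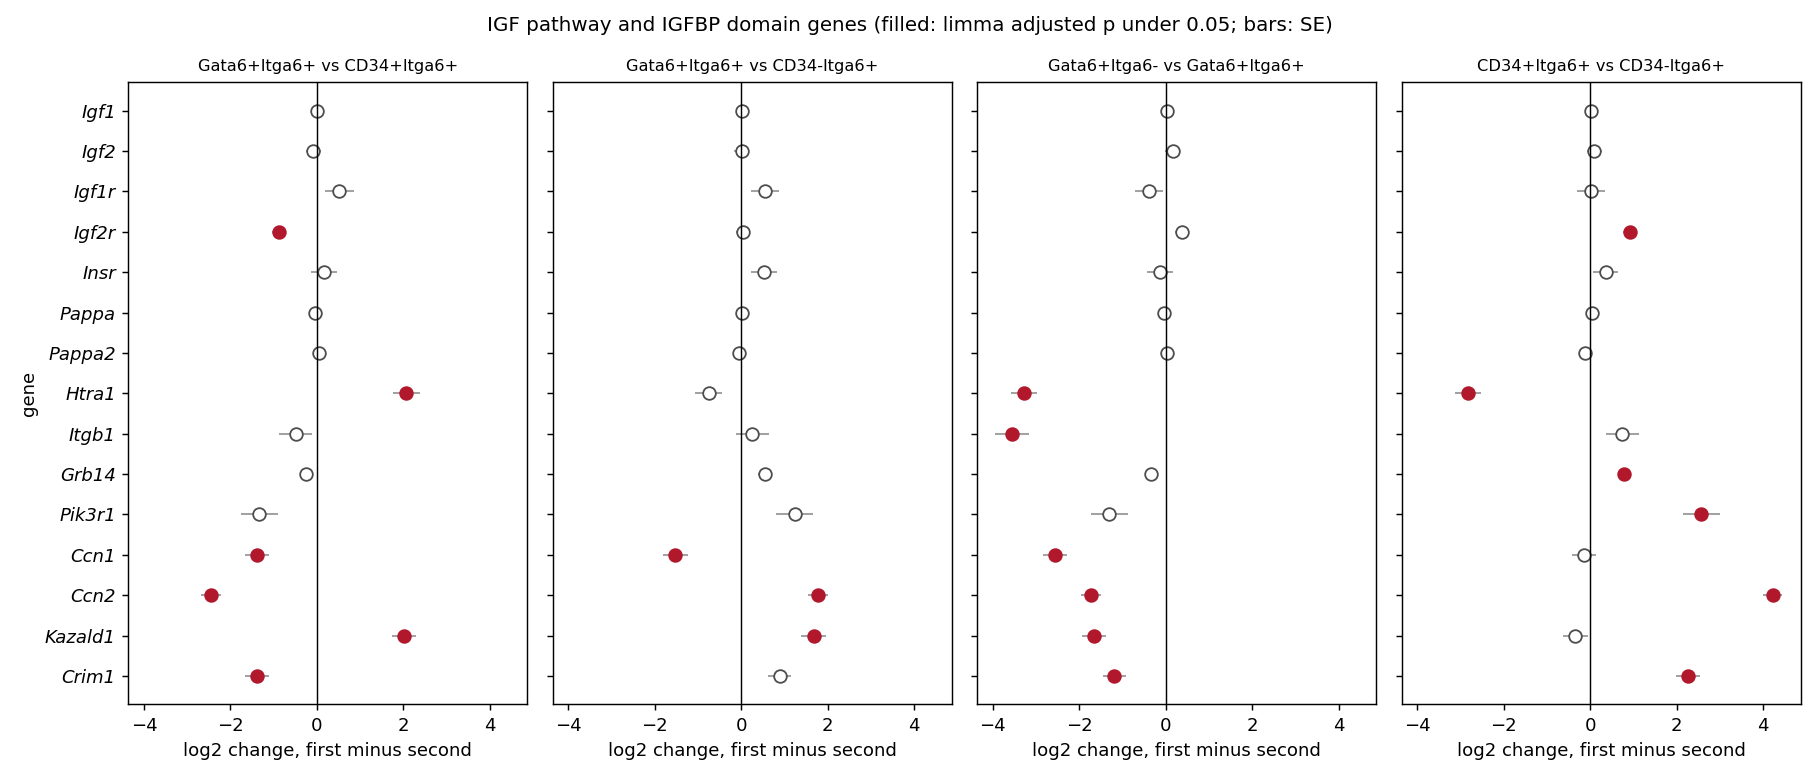
Log2 change (x axis, first minus second population) of IGF pathway and IGFBP domain genes in the 4 main comparisons; horizontal bars are the SE of the limma model and filled points passed an adjusted p under 0.05. Igf1, Igf2, Pappa and Pappa2 lie near 0 in every comparison, and Htra1 lies to the right for Gata6+Itga6+ against CD34+Itga6+ cells and to the left for Gata6+Itga6- against Gata6+Itga6+ and for CD34+Itga6+ against CD34-Itga6+ cells.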

How the data were processed

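Gene expression was measured on 12 exon arrays, 3 for each of 4 sorted populations. The deposited values are intensities of 235932 probe sets, which the authors made with RMA in Affymetrix Power Tools on mm9, according to the submitters' processing notes. Versions are not given in the sources used here. RNA was purified with the RNeasy micro kit and amplified with WT-Ovation Pico, per the labels' protocols. The scale of the values is not stated and was read as linear from their range, and every log2 level and fold rests on this. RMA is meant to even out brightness between arrays, which lessens any shift common to most genes. In the deposited values the upper quartile of intensity still ran from 12.1 to 17.6 over the arrays.

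Gene symbols came from the platform annotation and were brought up to date with the RefSeq gene table of GRCm38.p6: 15377 were current, 2489 updated and 42 left as given. The 221205 probe sets with 1 symbol were used, while 1684 with several and 13043 with none were left out. Levels are medians of log2(intensity + 1) over a gene's probe sets (10 per gene in the median); the added 1 understates changes of dim genes. Of 17853 genes, 9811 were below the silent level in all populations.

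With limma 3.58.1 (R 4.3.3), all 12 arrays were modelled by their population means (prior degrees of freedom 2.12, residual 8), with Benjamini-Hochberg adjustment over all genes and a threshold of 0.05. It was tested on simulated data. The labels do not say that the replicates came from separate animals, so p-values measure only the spread between these samples. The members and gene lists, and with them the tests, were chosen with earlier results of these data known. The lower bounds on folds and the silent level of probe sets were added after the values were seen. The genes named from the lists are the ligands, receptors and pappalysins and those limma called. The genes most like a member are the 3 with the highest Pearson r, with predicted gene models and clone names left out. Alternatives changed the summary over probe sets, the added constant (0.1 or 16), normalization, filters, covariates, blocks and the arrays in the fit.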

Additional observations from a re-analysis of the deposited data

How the results depend on the processing

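Counts of called genes are limma's, and the cause of each change was not tested. With the mean of the probe sets, 4 pathway genes were called between the Gata6+ populations and 7 between CD34+Itga6+ and CD34-Itga6+ cells. With the brightest probe set, 1 pathway gene was called in Gata6+Itga6+ against CD34+Itga6+ cells, 0 domain genes against CD34-Itga6+ cells and 3 between the Gata6+ populations, where Ccn2 and Kazald1 were not called. Of 42 differences of Igfbp genes, 15 in place of 23 had arrays that did not overlap, beside 18.9% in place of 19.3% over all genes. Quantile normalization gave 1 pathway gene in Gata6+Itga6+ against CD34-Itga6+ cells. Leaving out dim probe sets gave 7 between the reporter-negative populations. Array brightness as a covariate gave 4 pathway genes in Gata6+Itga6+ against CD34+Itga6+ cells and 1 domain gene against CD34-Itga6+ cells, as did a fit of only these 2 populations. Without 1 array, pathway calls in Gata6+Itga6+ against CD34+Itga6+ cells ran from 1 (without Gata6+Itga6+ replicate 3) to 3 and domain calls from 3 to 5, with 1 to 3 against CD34-Itga6+ cells and 3 to 5 within Gata6+ cells.

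Reversed log2 differences mostly concerned genes at silent level. The mean of probe sets gave 0.0499 and 0.0335 for Igfbp2 in Gata6+Itga6+ and Gata6+Itga6- against CD34-Itga6+ cells and 0.0414 for Igfbp1 within Gata6+ cells. The brightest probe set gave 0.15 for Igfbp5 in Gata6+Itga6+ against CD34-Itga6+ cells, 0.24 for Igfbp1 within Gata6+ cells, 0.0011 for Igfbp2 in Gata6+Itga6- against CD34-Itga6+ cells and -0.16 for Igfbp7 in CD34+Itga6+ against CD34-Itga6+ cells. Without dim probe sets Igfbp2 gave 0.15 and 0.45 in Gata6+Itga6+ and 0.0878 and 0.384 in Gata6+Itga6- cells against CD34+Itga6+ and CD34-Itga6+ cells, and Igfbp1 0.14 within Gata6+ cells.

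Over all genes, calls in Gata6+Itga6+ against CD34+Itga6+ cells numbered 819, and 503 with the brightest probe set and 1300 with the mean. Against CD34-Itga6+ cells they were 242, 454 with the mean, 110 with only these populations and 131 (without CD34-Itga6+ replicate 2) to 343 without 1 array. Within Gata6+ cells they were 567, 995 with the mean, 371 with the covariate and 285 (without Gata6+Itga6+ replicate 3) to 626 without 1 array. Between the reporter-negative populations they were 892, 1513 with the mean and 571 with only these populations. Deviations of same-numbered arrays from their population means correlated at -0.14 to 0.28 over 18 pairs, 5 of them above 0.1. Those of differently numbered arrays correlated at -0.24 to 0.27 over 36 pairs, 4 of them above 0.1. The sample descriptions also give letters of array positions, which cross the replicate numbers for CD34+Itga6+ cells. Deviations of arrays that share a letter correlated at -0.17 to 0.28 over 18 pairs, 5 of them above 0.1. Those of arrays with different letters correlated at -0.24 to 0.27 over 36 pairs, 4 of them above 0.1. With 3 arrays per population, these values cannot settle whether replicate numbers or position letters pair the samples. With the replicate number as a block, counts over all genes were 801, 204, 516 and 886, pathway counts stayed at 2, 0, 2 and 4, and domain calls within Gata6+ cells were 4 in place of 5, as Crim1 was not called (adjusted p = 0.0711). Where a gene's level is near the silent level, signal over background limits what the arrays can show.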
